A study of Mus musculus with 2 samples.

Results

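The 34 genes described here encode proteins that build peroxisomes or carry out their lipid chemistry. They are 13 peroxins and 21 peroxisomal enzymes and membrane proteins, taken by gene name with no measured value in the rule, on the ground that sebaceous cells are rich in peroxisomes. The members were nevertheless chosen with earlier results of these data known, so shares set beside those of all genes only describe them. All 34 were found among the 34745 genes of the count table, once Ensembl gene identifiers had been paired with GENCODE M21 symbols. The table holds 2 libraries of mouse ear skin, 1 labelled KAT8 cKO, a conditional knockout of the histone acetyltransferase gene Kat8, and 1 labelled WT. Ear skin in both had been given imiquimod, a TLR7 agonist used to set off psoriasis-like inflammation, as 30 mg of a 5% cream on each ear every day for 3 days, with the ears taken at day 4. No untreated skin was analysed here. The sources used here give neither the Cre driver and the cells it acts in nor the sex, age, strain and number of animals.

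Peroxisomes are organelles with a single membrane that shorten very-long-chain and branched fatty acids by beta-oxidation, trim phytanic acid by alpha-oxidation, begin the synthesis of ether lipids and break down the hydrogen peroxide that their oxidases release. Peroxins insert the membrane proteins, import the folded enzymes and let the organelle elongate and divide. In skin, the sebocytes of the sebaceous gland make sebum, a secretion rich in wax esters and triglycerides.

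The library labelled KAT8 cKO (cKO in what follows) held 13727524 counts on genes and the library labelled WT held 12179608. Counts were scaled to CPM, counts for a fixed library total, after correction of that total by edgeR's TMM (trimmed mean) factor, so that 1 count was worth 0.0689 CPM in the library labelled cKO and 0.0868 CPM in that labelled WT. There were no replicates. A ratio is therefore given with an exact (Clopper-Pearson) 95% interval from its pair of counts, which covers counting error only, and every difference describes these libraries and not the genotypes. The targeted gene went against its label: Kat8 had 351 counts (24.2 CPM) in the library labelled cKO and 219 counts (19.0 CPM) in that labelled WT, a ratio of 1.27 (1.07 to 1.51). Its count covers the whole gene, all cells of the ear and an exon shared with Prss8. Sex-linked transcripts differed along with the labels. Xist, made from an inactive X chromosome, had 6 counts in the library labelled cKO and 11891 in that labelled WT. The Y-linked genes Eif2s3y, Kdm5d and Ddx3y had 838, 305 and 635 counts in the library labelled cKO, and 0, 0 and 5 counts in that labelled WT. By these transcripts, the library labelled cKO came from male tissue and that labelled WT from female tissue. The genotype label, sex and whatever else differs with them between the mice cannot be told apart in any result that follows. The words "higher" and "lower" say only how the library labelled cKO compared with that labelled WT.

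Most peroxisome genes were somewhat more abundant in the library labelled cKO. The branched-chain oxidase gene Acox2, the membrane protein gene Pxmp4 and the lyase gene Hacl1 stood highest, and the fatty acid transporter gene Abcd2 was far lower. Of the 34 genes, 33 were measured, meaning at least 1 CPM in either library, and the exception was Slc27a2. The log2 ratio, log2 of (CPM + 1) in the library labelled cKO over (CPM + 1) in that labelled WT, was at least 1 for 5 genes (Acox2, Pxmp4, Hacl1, Pex3 and Pex11g) and at most -1 for Abcd2 alone, which left 27 within 2-fold. Those 5 genes were 15.2% of the members measured, against 4.56% of all 15240 genes measured, and the 1 lower gene was 3.03%, against 8.63% of all genes. The ratio lay above 0 on the log2 scale for 24 of the 33, against 7712 of all 15240 genes measured. The median log2 ratio of the 33 was 0.26, beside 0.01 over all genes. The counting interval of the ratio lay wholly above 1 for 20 members, or 60.6%, against 32.1% of all genes, and wholly below 1 for 8 members, or 24.2%, against 31.9%. It held 1 for the other 5, and for 5486 of all 15240 genes measured. An interval narrows as counts rise. Genes were not matched for counts, here or where interval shares are given for other lists. Over all genes the 2-fold rule gave 695 higher and 1315 lower with TMM, but 964 higher and 1056 lower with plain CPM, a scaling that moved the median of all genes to 0.16 and left the members at 5 higher and 1 lower.

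**Figure D1:**
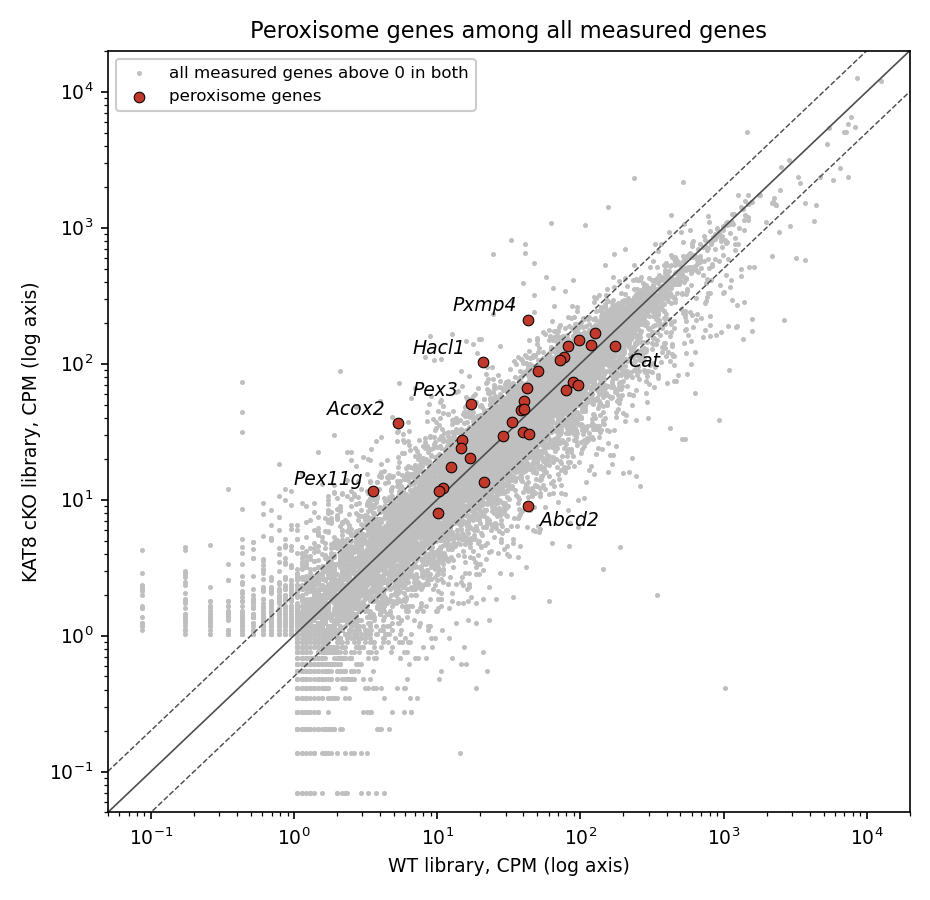
CPM of the measured genes above 0 in both libraries (grey) and of the 33 measured peroxisome genes (coloured), with the library labelled KAT8 cKO on one axis and the library labelled WT on the other, both on log scales. Acox2, Pxmp4, Hacl1, Pex3 and Pex11g lie past the 2-fold line on the side of the library labelled KAT8 cKO and Abcd2 past that on the side of the library labelled WT, while the other 27 lie between these lines.

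Summed over the members, the level was 2132 CPM in the library labelled cKO and 1618 CPM in that labelled WT, a ratio of 1.32. Their share of the raw counts, to which no TMM factor was applied, was 0.225% in the library labelled cKO and 0.153% in that labelled WT. Without the 5 genes past 2-fold on the higher side, the remaining 28 measured members summed to 1720.0 CPM in the library labelled cKO and 1528 CPM in that labelled WT, a ratio of 1.13, with a median log2 ratio of 0.19. The sum was higher for peroxins and for enzymes. The 13 peroxins summed to 579 CPM in the library labelled cKO and 419 CPM in that labelled WT, a ratio of 1.38, with a median log2 ratio of 0.37. The 20 measured enzymes and membrane proteins summed to 1553 CPM in the library labelled cKO and 1198 CPM in that labelled WT, a ratio of 1.296, with a median log2 ratio of 0.23.

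Markers of several cell types differed between the libraries at the same time. Sebocyte markers were higher for 10 of 12, with a median log2 ratio of 2.58 and a summed level of 9101 CPM in the library labelled cKO against 1908 CPM in that labelled WT. Adipocyte markers were lower for 8 of 11 measured and higher for 1 (Cidea), with sums of 456 CPM in the library labelled cKO and 3153 CPM in that labelled WT. Ucp1, not among the 11, had 3 counts in the library labelled cKO and 0 in that labelled WT. All 12 muscle markers were lower, with sums of 2996 CPM in the library labelled cKO and 14849 CPM in that labelled WT. Lower too were 7 of 8 suprabasal keratinocyte markers (1960.2 CPM in the library labelled cKO, 6014 CPM in that labelled WT) and 8 of 10 neutrophil markers (5083 CPM in the library labelled cKO, 14040.4 CPM in that labelled WT). Basal keratinocyte markers were higher for 2 of 7 and lower for none, with 27198 CPM in the library labelled cKO and 22578 CPM in that labelled WT. No sebocyte, muscle, keratinocyte or neutrophil marker was at 0 in either library. In bulk skin, more cells of a type and more RNA of a gene in each cell cannot be told apart, and the part of these markers in the peroxisome values was not tested.

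Promoter sequences are shown for 3 of the 5 genes past 2-fold and for catalase, because peroxisomal genes are classic targets of the nuclear receptor PPARalpha in rodent liver. PPARs bind as partners of RXR to the 6 letters AGGTCA repeated in the same direction with 1 base between, called DR1. RefSeq promoters (GRCm38.p6, 250 bases before to 50 after a start) were used for 27 members, 32 promoters in all, leaving Abcd2, Amacr, Crat, Hsd17b4, Pex2, Pex19 and Pxmp2 without one. Searched on both strands, an exact DR1 was in none of the 32 and in 0.0396% of 32851 promoters. With up to 2 of 12 letters changed it was in 2 of the 32, 6.25% against 3.86% of all, and those were Acox2 and Cat. The Acox2 match starts 9 bases after the second of its listed starts and is shown within chr14:8258810-8258838 on the minus strand. The Cat match starts at position -204 from the start and is shown within chr2:103485337-103485365 on the minus strand. Capitals mark the letters that equal the repeat.
Acox2: gctgtcccAGGaCAgAGGTgAgtcaagag
Cat: actctcagAGGTCAgAGaaCAccagcagg
One gene with an inexact match, Acox2, had the highest ratio of the members, and the other, Cat, a ratio below 1. A match is a description of letters and not a binding site.

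Shorter motifs were counted in the same promoters, CCAAT and the GC box GGGCGG having been added after the data were seen. A single AGGTCA was in 5 of 32 member promoters, 15.6% against 16.3% of all promoters, in a search whose hits include those within a DR1. CCAAT was in 14, 43.8% against 37.4%, and GGGCGG in 22, 68.8% against 35.7%. The promoters set beside those of the members were not limited to genes measured here. Of the 6 promoters of the 5 genes past 2-fold on the higher side, 3 held CCAAT, 3 held GGGCGG and 1 held AGGTCA. Pxmp4 held 3 CCAAT boxes and 1 GC box in the 215 bases that end 35 bases before its start, at chr2:154603709-154603923 on the minus strand. Pex11g held 1 AGGTCA in the 218 bases that end 32 bases before its start, at chr8:3467681-3467898 on the minus strand. Both stretches lie outside annotated exons, and capitals mark a CCAAT, GC box or AGGTCA on either strand.
Pxmp4: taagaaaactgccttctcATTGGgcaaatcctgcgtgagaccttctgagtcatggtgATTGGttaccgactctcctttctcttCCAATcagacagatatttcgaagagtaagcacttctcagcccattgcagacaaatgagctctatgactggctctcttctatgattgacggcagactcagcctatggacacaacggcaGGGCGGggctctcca
Pex11g: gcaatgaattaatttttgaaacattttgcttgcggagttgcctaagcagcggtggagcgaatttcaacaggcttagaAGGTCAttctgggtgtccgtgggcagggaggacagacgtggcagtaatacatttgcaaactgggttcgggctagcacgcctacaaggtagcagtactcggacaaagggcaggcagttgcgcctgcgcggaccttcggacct

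Among the 6 peroxins that bring enzymes into the organelle, intervals lay above 1 for Pex5 and Pex14, held 1 for Pex7, Pex2 and Pex10, and lay below 1 for Pex13. Pex5, the receptor for the common C-terminal targeting signal, had 1289 counts (88.8 CPM) in the library labelled cKO and 587 (51.0 CPM) in that labelled WT, a ratio of 1.74 (1.58 to 1.93). Pex7, the receptor for the rarer N-terminal signal, had 29.2 CPM in the library labelled cKO and 28.8 CPM in that labelled WT, a ratio of 1.01 (0.876 to 1.17). The intervals of these receptor genes did not overlap. Pex14, the docking protein that receives loaded receptors at the membrane, had 955 counts (65.8 CPM) in the library labelled cKO and 488 (42.4 CPM) in that labelled WT, a ratio of 1.55 (1.39 to 1.74). Its docking partner Pex13 had 31.6 CPM in the library labelled cKO and 39.9 CPM in that labelled WT, a ratio of 0.792 (0.695 to 0.903). Both RING ubiquitin ligase genes had intervals that held 1. Pex2 had 37.2 CPM in the library labelled cKO and 33.1 CPM in that labelled WT (ratio 1.13, 0.985 to 1.29). Pex10 had 12.2 CPM in the library labelled cKO and 11.0 CPM in that labelled WT (ratio 1.11, 0.876 to 1.40).

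The recycling machinery, which pulls used receptors back out of the membrane, was split. Pex6, an AAA ATPase of the export complex, had 53.0 CPM in the library labelled cKO and 40.7 CPM in that labelled WT, a ratio of 1.302 (1.16 to 1.46). Pex26, the membrane anchor of that ATPase, had 13.5 CPM in the library labelled cKO and 21.1 CPM in that labelled WT, a ratio of 0.640 (0.528 to 0.776), the lowest among the peroxins.

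All 3 genes for membrane protein insertion had intervals above 1. Pex3, the docking factor in the peroxisomal membrane, had 733 counts (50.5 CPM) in the library labelled cKO and 197 (17.1 CPM) in that labelled WT. Its ratio was 2.95 (2.52 to 3.47) and its log2 ratio 1.51, with 271 measured genes above it. Pex3 (ENSMUSG00000019809) lies on the minus strand at chr10:13523842-13553142 (GRCm38, as for the genes that follow) and shares exon bases with Adat2 on the other strand, and Adat2 had 97 counts in the library labelled cKO and 100 in that labelled WT. Pex19, the chaperone that carries membrane proteins to Pex3, had 1625 counts (112 CPM) in the library labelled cKO and 888 (77.1 CPM) in that labelled WT, a ratio of 1.45 (1.34 to 1.58). Pex16, which helps recruit Pex3, had 45.5 CPM in the library labelled cKO and 38.7 CPM in that labelled WT, a ratio of 1.18 (1.04 to 1.33), and shares exon bases with Large2, a gene at 1262 counts in the library labelled cKO and 452 in that labelled WT.

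Both members for elongation and division of the organelle, Pex11g and Pex11a, had intervals above 1. Pex11g had 167 counts (11.5 CPM) in the library labelled cKO and 41 (3.56 CPM) in that labelled WT, a ratio of 3.23 (2.29 to 4.67) and a log2 ratio of 1.46. Pex11g (ENSMUSG00000069633, chr8:3457105-3467680, minus strand) had the fewest counts of the 5 genes past 2-fold. Pex11a, induced by PPARalpha agonists in rodent liver, had 401 counts (27.6 CPM) in the library labelled cKO and 173 (15.0 CPM) in that labelled WT, a ratio of 1.84 (1.54 to 2.21).

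**Figure D2:**
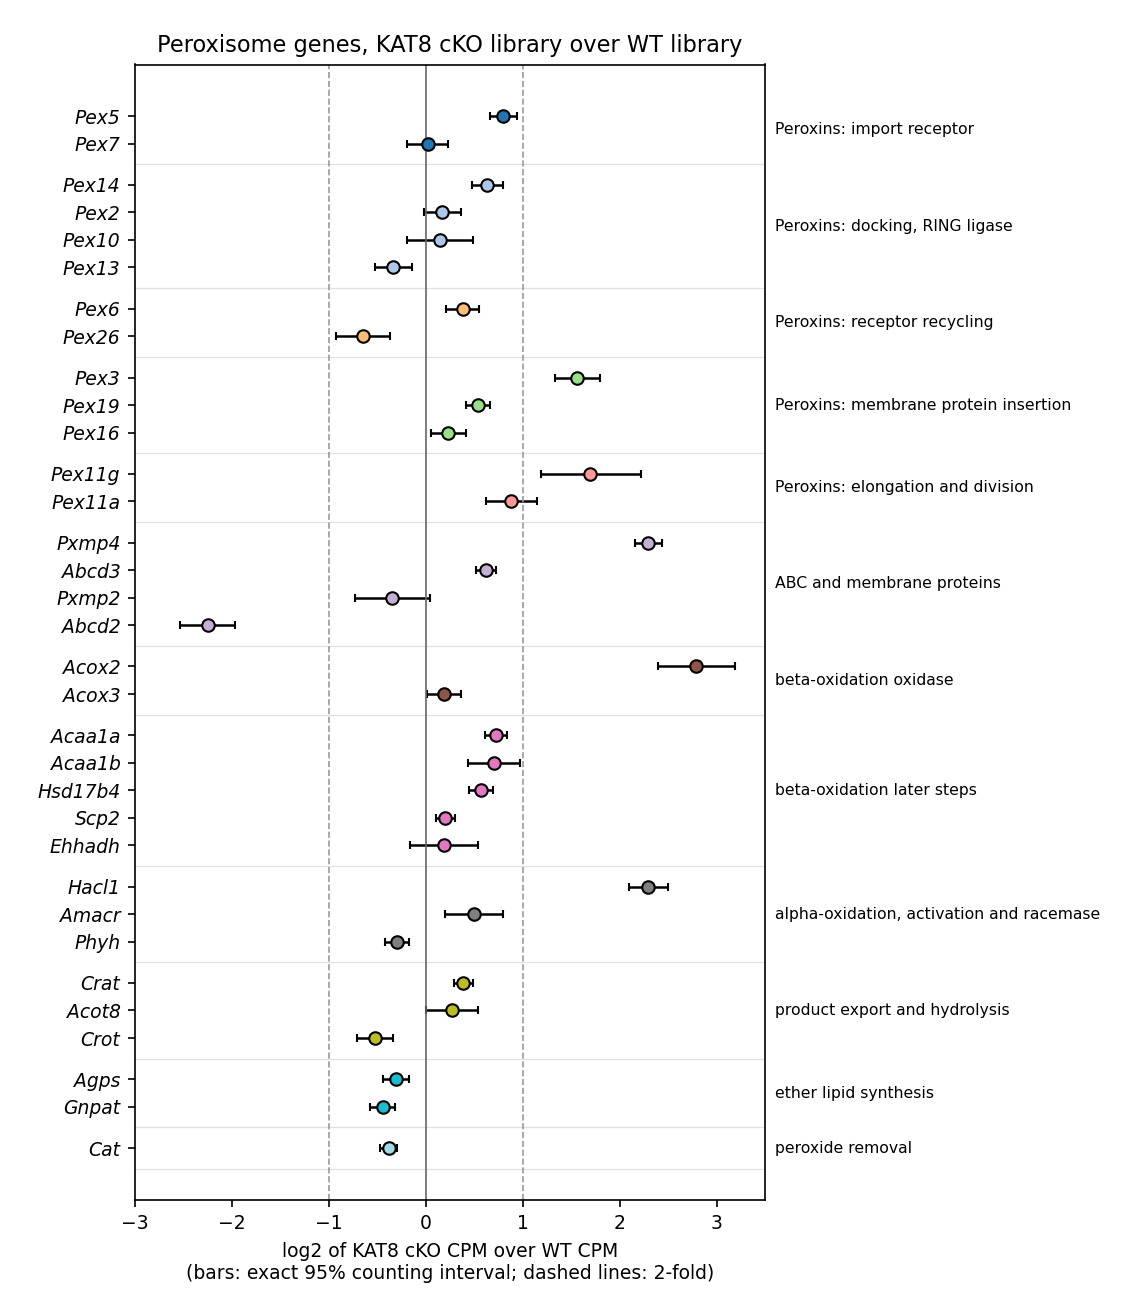
Log2 ratio of CPM, library labelled KAT8 cKO over library labelled WT, for the 33 measured peroxisome genes grouped by role, with exact 95% counting intervals as bars and dashed lines at 2-fold. Points for membrane protein insertion, elongation and later beta-oxidation lie to the right of 0, ether lipid genes and Cat to the left, and Abcd2 stands alone on the far left.

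The membrane proteins spanned most of the range of the members. Pxmp4 (ENSMUSG00000000876, chr2:154585758-154603708, minus strand) is a peroxisomal membrane protein of little known function. It had 3053 counts (210.4 CPM) in the library labelled cKO and 494 (42.9 CPM) in that labelled WT, a ratio of 4.91 (4.46 to 5.41) and a log2 ratio of 2.27, and only 77 measured genes had a larger one. Abcd2 (ENSMUSG00000055782, chr15:91145871-91191799, minus strand) encodes a transporter for very-long-chain and polyunsaturated acyl-CoAs and is known for its expression in adipose tissue. It had 131 counts (9.03 CPM) in the library labelled cKO and 495 (43.0 CPM) in that labelled WT, which was 4.76-fold (3.92 to 5.82) lower, with a log2 ratio of -2.13. The adipocyte markers summed to 456 CPM in the library labelled cKO and 3153 CPM in that labelled WT, and their part in the Abcd2 value was not tested. Abcd3, a transporter of long and branched acyl-CoAs, had 2165 counts (149 CPM) in the library labelled cKO and 1119 (97.1 CPM) in that labelled WT, a ratio of 1.54 (1.43 to 1.65). Pxmp2, a channel-forming protein for small solutes, had 7.92 CPM in the library labelled cKO and 10.1 CPM in that labelled WT, a ratio of 0.787 with an interval that held 1 (0.603 to 1.03).

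Beta-oxidation opens with an acyl-CoA oxidase, and the ratios of the 2 oxidase genes on the list lay far apart. Acox2 (ENSMUSG00000021751, chr14:8225511-8259353, minus strand), which oxidises branched fatty acids and bile acid intermediates, had 529 counts (36.5 CPM) in the library labelled cKO and 61 (5.29 CPM) in that labelled WT. Its ratio of 6.88 (5.27 to 9.13) and log2 ratio of 2.57 were the highest among the members, with 51 measured genes above it. Acox3, an oxidase of branched substrates such as pristanoyl-CoA, had 46.1 CPM in the library labelled cKO and 40.4 CPM in that labelled WT, a ratio of 1.14 (1.01 to 1.29).

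The later steps of beta-oxidation were all above 1 but within 2-fold. Hsd17b4, the D-bifunctional protein that hydrates and dehydrogenates the oxidised chain, had 1543 counts (106 CPM) in the library labelled cKO and 826 (71.7 CPM) in that labelled WT, a ratio of 1.48 (1.36 to 1.62). Ehhadh, the L-bifunctional protein, had 11.6 CPM in the library labelled cKO and 10.2 CPM in that labelled WT, a ratio of 1.14 with an interval that held 1 (0.893 to 1.45). The thiolases cut the chain at the last step. Acaa1a had 1968 counts (136 CPM) in the library labelled cKO and 947 (82.2 CPM) in that labelled WT, a ratio of 1.65 (1.53 to 1.78). Its near copy Acaa1b had 23.8 CPM in the library labelled cKO and 14.7 CPM in that labelled WT, a ratio of 1.63 (1.35 to 1.97), and since 30.5% of the 50-base words of Acaa1b (all stretches of that length in its transcripts) are shared, with Acaa1a, the split between them is uncertain. Scp2, a thiolase for branched chains and a sterol carrier, had 1987 counts (137 CPM) in the library labelled cKO and 1371 (119 CPM) in that labelled WT, a ratio of 1.15 (1.07 to 1.23). It shares 29.7% of its 50-base words, with the pseudogene Scp2-ps2, so its count is uncertain too. These 5 genes summed to 414 CPM in the library labelled cKO and 298 CPM in that labelled WT, a ratio of 1.39.

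Alpha-oxidation was divided between its steps. Phyh, which hydroxylates phytanoyl-CoA first, had 1057 counts (72.8 CPM) in the library labelled cKO and 1031 (89.5 CPM) in that labelled WT, a ratio of 0.814 (0.746 to 0.888). Hacl1 (ENSMUSG00000021884, chr14:31598730-31641286, minus strand), the lyase that then cleaves the 2-hydroxyacyl-CoA, had 1494 counts (103 CPM) in the library labelled cKO and 242 (21.01 CPM) in that labelled WT. Its ratio was 4.90 (4.28 to 5.64), its log2 ratio 2.24. Hacl1 shares exon bases with Btd, which had 386 counts in the library labelled cKO and 211 in that labelled WT. It also shares 28.4% of its 50-base words, first of all with Gm49387, which was not analysed here. Fa2h, the hydroxylase that makes 2-hydroxy fatty acids, belongs to the sebocyte list and had 815 CPM in the library labelled cKO and 32.7 CPM in that labelled WT. Amacr, the racemase that readies branched acyl-CoAs for the oxidases, had 17.5 CPM in the library labelled cKO and 12.4 CPM in that labelled WT, a ratio of 1.41 (1.14 to 1.74). Slc27a2, an acyl-CoA synthetase for very long chains, had 3 counts in the library labelled cKO and 4 in that labelled WT, too few for a ratio to be read.

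The genes that send shortened chains out of the organelle went both ways within 2-fold. Crat, the carnitine acetyltransferase, had 2420 counts (167 CPM) in the library labelled cKO and 1468 (127 CPM) in that labelled WT, a ratio of 1.31 (1.23 to 1.40), and shares exon bases with Dolpp1, a gene at 664 counts in the library labelled cKO and 260 in that labelled WT. Crot, the medium-chain carnitine acyltransferase, had 30.4 CPM in the library labelled cKO and 43.7 CPM in that labelled WT, a ratio of 0.695 (0.610 to 0.791). Acot8, a thioesterase that frees the acid from CoA, had 20.3 CPM in the library labelled cKO and 16.8 CPM in that labelled WT, a ratio of 1.21 (1.004 to 1.45).

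Both members for ether lipid synthesis, Gnpat and Agps, and the catalase gene Cat had ratios below 1 under each scaling tried. Gnpat, which adds the first acyl chain of an ether lipid, had 1018 counts (70.1 CPM) in the library labelled cKO and 1101 (95.6 CPM) in that labelled WT, a ratio of 0.734 (0.673 to 0.80001). Agps, which swaps that chain for a fatty alcohol, had 64.1 CPM in the library labelled cKO and 79.2 CPM in that labelled WT, a ratio of 0.809 (0.737 to 0.887). Cat, the catalase that breaks down hydrogen peroxide, had 1955 counts (135 CPM) in the library labelled cKO and 2025 (176 CPM) in that labelled WT, a ratio of 0.766 (0.720 to 0.816).

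Levels between genes were compared per kilobase of merged exon. In the library labelled cKO Pxmp4 stood first among the members, at 67.6 CPM per kb, followed by Cat (51.6), Scp2 (39.4), Phyh (38.5) and Hsd17b4 (31.2). In the library labelled WT Cat stood first at 67.3 CPM per kb, followed by Phyh (47.3), Scp2 (34.2), Gnpat (26.6) and Crat (23.6), with Pxmp4 at rank 12. Acox2 stood at rank 20 in the library labelled cKO and at rank 32 in that labelled WT. Hacl1 stood at rank 12 in the library labelled cKO and 25 in that labelled WT, and Abcd2 at rank 33 in the library labelled cKO and 21 in that labelled WT. A merged exon length counts every annotated exon, so long rare exons make a level look lower.

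Relatives of the members were set beside them per kb of merged exon. Acox2 stood at 9.84 CPM per kb in the library labelled cKO and 1.43 in that labelled WT, and Acox3 at 4.001 in the library labelled cKO and 3.51 in that labelled WT. Acoxl, a gene related to the oxidases and not on the list, stood at 27.8 CPM per kb (1282 counts) in the library labelled cKO and 0.655 (24 counts) in that labelled WT. Of these 3 genes, Acoxl had the lowest level in the library labelled WT and the highest in that labelled cKO. Among the ABCD transporters, Abcd2 stood at 1.52 CPM per kb in the library labelled cKO and 7.23 in that labelled WT. Abcd3 stood at 22.6 CPM per kb in the library labelled cKO and 14.7 in that labelled WT. Abcd4, not on the list, had a ratio of 1.35 (1.14 to 1.59), so Abcd2 alone of these 3 was lower. Of the summed level of the 3 thiolase genes per kb, Scp2 made up 47.9% in the library labelled cKO and 56.7% in that labelled WT.

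**Figure D3:**
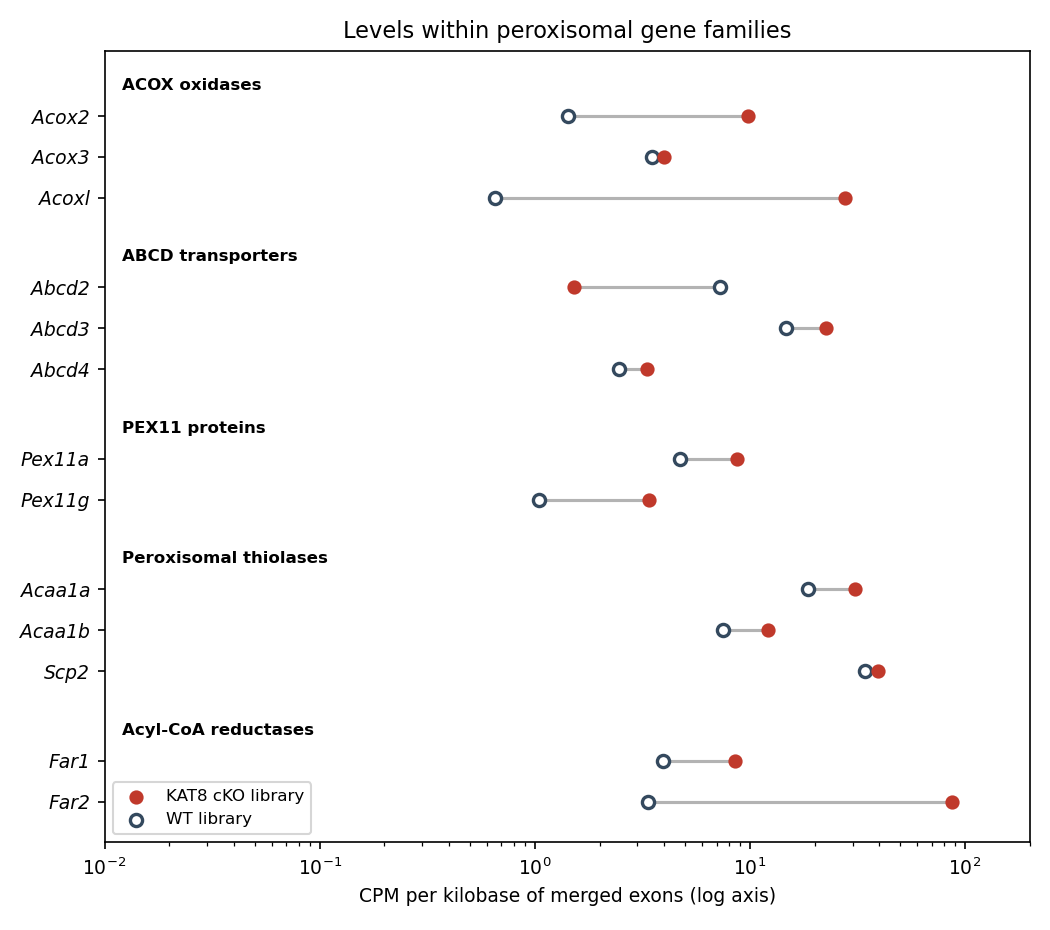
Level in CPM per kb of merged exon for genes of 5 families, library labelled KAT8 cKO beside library labelled WT, on a log scale. Acox2, Acoxl and Far2 are far apart between the libraries with the library labelled KAT8 cKO higher, Abcd2 is apart the other way, and Acox3 and Scp2 lie close together.

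Peroxisomal genes outside the list were counted in the same way. For these counts and those of the lists that follow, the shares over all genes were 4.56% higher and 8.63% lower. Of 15 other genes for biogenesis and division, none was higher and 1 was lower, Gdap1, at 2 counts in the library labelled cKO and 18 in that labelled WT, with a median log2 ratio of 0.17 over the list. Dnm1l, the dynamin-like protein that pinches off peroxisomes and mitochondria, had 91.6 CPM in the library labelled cKO and 115 CPM in that labelled WT. Its ratio was 0.796 (0.737 to 0.859). The membrane adaptor of Dnm1l, Fis1, had 72.2 CPM in the library labelled cKO and 81.7 CPM in that labelled WT, a ratio of 0.884 (0.809 to 0.966). Over the 15 genes, intervals lay above 1 for 7 (46.7%, against 32.1% of all genes) and below 1 for 5 (33.3%, against 31.9%). Of 25 measured genes among 27 for other peroxisomal lipid enzymes, intervals lay above 1 for 10 (40%) and below 1 for 8 (32%). At the 2-fold rule 4 were higher (16%) and 3 lower (12%), and the list median was 0.08. The higher ones were Acoxl, the fatty acyl-CoA reductases Far2 (638 CPM in the library labelled cKO, 24.6 CPM in that labelled WT) and Far1 (68.9 CPM in the library labelled cKO, 31.8 CPM in that labelled WT), and the thioesterase Acot5 (436 counts in the library labelled cKO, 22 in that labelled WT). Far1 and Far2 make the fatty alcohols used in ether lipids and wax esters, and Far2 is also on the sebocyte list. The lower ones were the epoxide hydrolase Ephx2 (159 counts in the library labelled cKO, 701 in that labelled WT), the isomerase Eci3 (1 count in the library labelled cKO, 16 in that labelled WT) and the acyl-CoA synthetase Acsl1 (1649 counts in the library labelled cKO, 2687 in that labelled WT). Of 10 measured redox and amino acid enzymes among 15, only the peroxiredoxin Prdx5 passed 2-fold, lower at 206 CPM in the library labelled cKO against 547 CPM in that labelled WT, and the list median was -0.06 (0.09 with plain CPM). The xanthine oxidoreductase Xdh had 175 CPM in the library labelled cKO and 238 CPM in that labelled WT.

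Mitochondrial beta-oxidation was set beside the peroxisomal pathway as the other route of fatty acid breakdown. Its 19 genes summed to 1738 CPM in the library labelled cKO and to the same 1738 CPM in that labelled WT, with a median log2 ratio of -0.08 (0.07 with plain CPM). None was higher, and Cpt1b, the muscle form of the carnitine palmitoyltransferase, was lower at 377 counts in the library labelled cKO against 649 in that labelled WT. The muscle markers were lower with it, as given above, and their part was not tested. The most abundant genes were Hadha, the alpha subunit of the trifunctional protein, at 217 CPM in the library labelled cKO and 199.99 CPM in that labelled WT, and the dehydrogenase Acadl, at 196 CPM in the library labelled cKO and 177 CPM in that labelled WT.

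The receptors that control peroxisomal genes in liver were mostly within 2-fold. Ppara had 6.06 CPM in the library labelled cKO and 3.73 CPM in that labelled WT, a ratio of 1.62 (1.12 to 2.40). Pparg, which drives sebocyte and adipocyte differentiation, had 29.6 CPM in the library labelled cKO and 20.1 CPM in that labelled WT, a ratio of 1.47 (1.25 to 1.74). Ppard went the other way, with 91.0 CPM in the library labelled cKO and 115 CPM in that labelled WT. Its ratio was 0.790 (0.731 to 0.853). The coactivators parted, with Ppargc1b higher (276 counts in the library labelled cKO, 95 in that labelled WT) and Ppargc1a lower (47 counts in the library labelled cKO, 89 in that labelled WT). Over the 8 receptor and coactivator genes the median log2 ratio was 0.52. Intervals lay above 1 for 5 of the 8 (62.5%, against 32.1% of all genes) and below 1 for 3 (37.5%, against 31.9%). PPAR target genes outside peroxisomes were more often lower. Of 16 listed, 12 were measured, and the log2 ratio lay above 0 for 3 of these, against 7712 of all 15240 genes measured. Intervals lay above 1 for 2 of the 12 (16.7%, against 32.1% of all genes) and below 1 for 7 (58.3%, against 31.9%). At the 2-fold rule 2 were higher (16.7%, against 4.56% of all genes) and 3 lower (25%, against 8.63%). Among the higher ones was the thioesterase Acot1 (1323 counts in the library labelled cKO, 373 in that labelled WT). The 3 lower ones were Ucp3, Cpt1b and Pdk4, with Pdk4 at 306 counts in the library labelled cKO and 1020 in that labelled WT, and the list median was -0.20. Cpt1b is counted in the mitochondrial list too. The muscle markers were lower as well, and their part in these values was not tested. Cyp4a10 and Cyp4a14 were at 0 in both libraries.

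**Figure D4:**
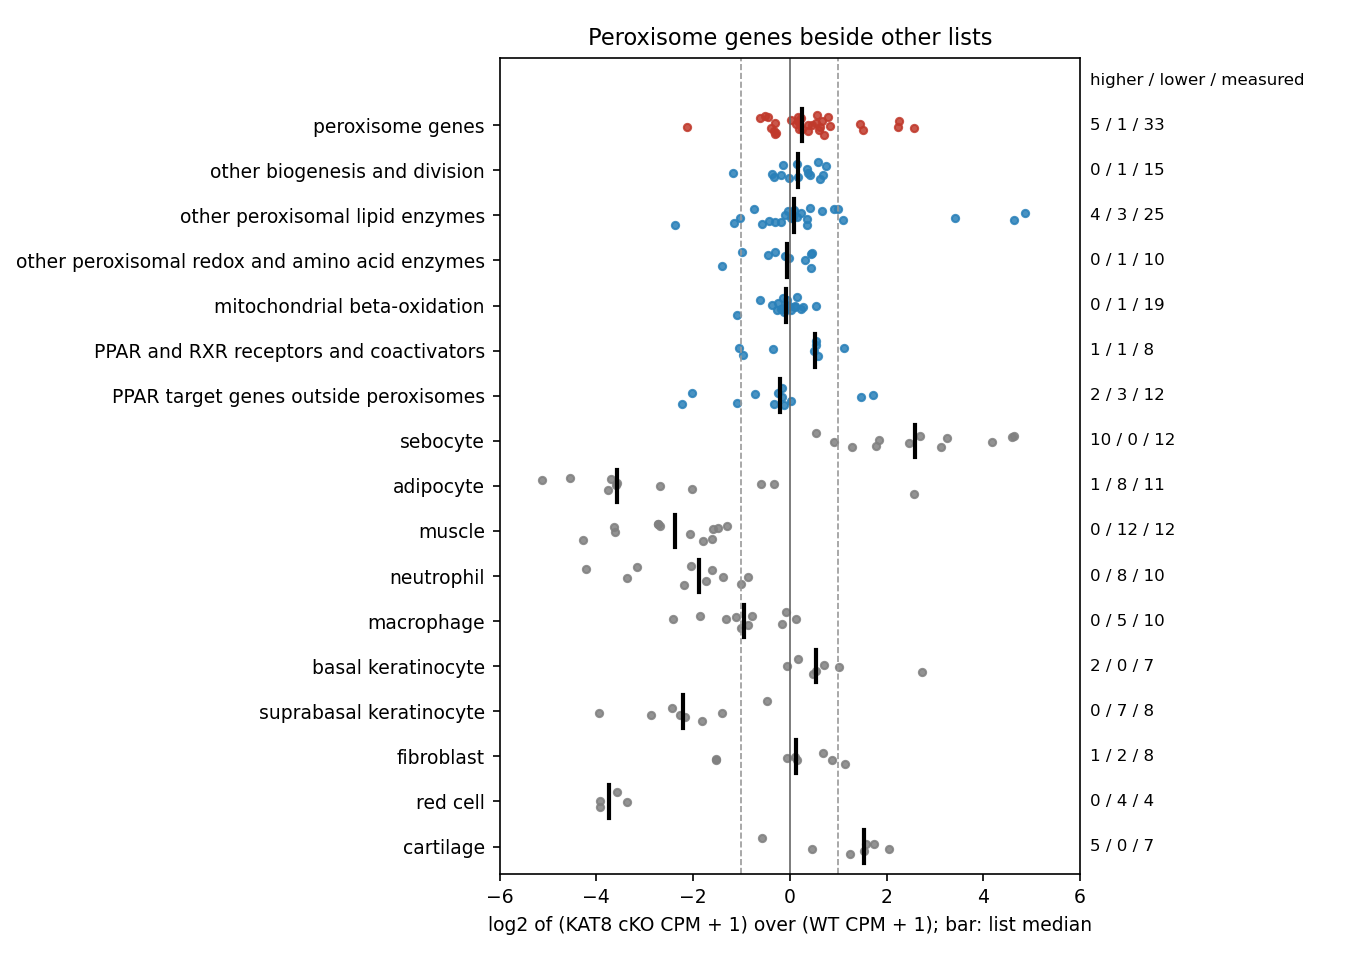
Log2 ratio of each measured gene (points) and median (bar) for the peroxisome genes and the lists set beside them, library labelled KAT8 cKO over library labelled WT, with dashed lines at 2-fold and the counts of higher, lower and measured genes at the right. The peroxisome median of 0.26 lies near 0, between the sebocyte median of 2.58 and the adipocyte median of -3.57.

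The values of some members depend on how reads were counted, since the sources used here do not say whether strand was used. Exon bases were shared with another gene for 15 of the 34 members, and 31.0% of all measured genes had such an overlap. Among the 19 members without it, 3 were higher (Acox2, Pxmp4 and Pex11g) and 1 lower (Abcd2). Of the 10514 measured genes with no overlap found, 4.98% were higher and 9.44% lower. These include genes without a GENCODE M21 symbol, whose overlap is unknown. Acox2 and Pex11g transcripts shared no 50-base word with another gene, while Pxmp4 shared 3.20%.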

How the data were processed

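Per the labels' protocols, polyadenylated RNA from total ear RNA was made into Illumina libraries. The deposited table holds whole-number counts per Ensembl gene, not normalized by the authors as far as the values show. Per the submitters' processing notes the tools were HISAT2, StringTie 1.3.0 and edgeR and the build mm10, with no role stated. The sources used here do not give the counting tool, its annotation or its use of strand, so reads in exons shared by 2 genes cannot be assigned with certainty.

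A GENCODE M21 (GRCm38) symbol was found for 34344 of the 34745 genes. Each count was scaled by library total and TMM factor (1.06 for the library labelled KAT8 cKO, 0.946 for that labelled WT; edgeR 4.0.16, R 4.3.3), and log2 ratios used a pseudocount of 1 CPM. A gene reaching 1 CPM in at least 1 library was measured, and a log2 ratio of 1 or more in either direction was called higher or lower. Ratios in the text are ratios of TMM-scaled CPM without a pseudocount, with exact 95% intervals (scipy 1.17.1). With 1 library per genotype no test was possible and edgeR served for scaling only. Intervals cover counting error alone and take reads as independent. Without molecular identifiers, PCR copies of a read cannot be set apart, and they would make the intervals too narrow. The ratio and interval code was tested on simulated data. Alternatives were plain CPM, DESeq2 1.42.0 size factors, TMM without the 50 highest genes or without mitochondrial genes, pseudocounts of 0.1 and 5, no filter, at least 5 CPM, genes without shared exons, and a 1.5-fold rule.

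All measured members are named, those past 2-fold with coordinates, and in each peroxisomal or lipid list up to 4 genes past 2-fold, by size of ratio, or the 2 most abundant genes where fewer than 2 passed. Ppara, Ppard, Pparg, Fa2h, Abcd4, Far1, Acsl1, Eci3, Gdap1, Cpt1b, Cyp4a10, Cyp4a14, Cidea, Ucp1 and the genes sharing exons or sequence were added after their values were seen. The members and lists were chosen with earlier results of these data known. Cell type lists are given as counts and sums. Macrophage markers were lower for 5 of 10, fibroblast markers lower for 2 and higher for 1 of 8, red cell markers lower for 4 of 4, and cartilage markers higher for 5 of 7. A planned search for targeting signals in protein sequences was not run, since no protein sequences were used here. Some genes of these lists are not reported here.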

Additional observations from a re-analysis of the deposited data

How the results depend on the processing

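No result on the members changed direction. The 33 measured members kept the sign of their log2 ratio under 8 alternatives, as did the 19 without shared exons in theirs, and at the 2-fold rule the call changed for Pex11g alone, at 0.95 with a pseudocount of 5. The members' median log2 ratio ranged from 0.21 to 0.41, the highest with plain CPM. Members higher numbered 3 without genes that share exons and 11 at 1.5-fold, and members lower numbered 1 and 2 in the same order, against 4.98% and 12.9% of all genes higher and 9.44% and 17.2% lower. An interval lay above 1 for 11 and below 1 for 4 of the 19 members without shared exons, an alternative chosen after seeing the data. Over the 10469 measured genes annotated without shared exons, the shares were 31.9% and 33.2%. Under the other scalings the counts were 20 to 21 and 7 to 8, and with plain CPM the background was 44.0% above and 23.9% below. Over all genes the 2-fold rule gave 1012 higher and 1722 lower with a pseudocount of 0.1, and 347 higher and 777 lower with a pseudocount of 5.

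The sign of a median log2 ratio changed for 4 other lists. Without shared exons it was -0.0222 for other biogenesis genes and -0.00165 for other lipid enzymes. With plain CPM it was 0.09 for redox and amino acid enzymes (0 with no filter) and 0.07 for mitochondrial beta-oxidation. Other biogenesis genes gave 1 higher with a pseudocount of 0.1 and 3 at 1.5-fold, and 0 lower with a pseudocount of 5 or at least 5 CPM. Other lipid enzymes gave 2 higher without shared exons and 7 at 1.5-fold. Redox and amino acid enzymes gave 2 lower with a pseudocount of 0.1 or at 1.5-fold and 0 without shared exons. Mitochondrial beta-oxidation gave 0 lower with plain CPM or a pseudocount of 5 and 2 at 1.5-fold. PPAR and RXR genes gave 0 higher with a pseudocount of 5, 0 lower with plain CPM or a pseudocount of 5, and 2 lower with a pseudocount of 0.1 or at 1.5-fold. Fewer genes enter without shared exons, and a 1.5-fold rule admits more by construction. Plain CPM leaves out the TMM factors, which raises the ratios by construction. A pseudocount or a CPM filter acts mostly on genes with few counts. At this depth genes with few counts, such as Slc27a2 and Eci3, have wide intervals. No paired analysis was possible because each genotype has 1 library.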
